A study of Mus musculus with 6 samples.

Results

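The histone genes were taken from the array by name. Probes whose symbol began with Hist1h to Hist4h were counted as replication-dependent histone genes, and probes whose symbol began with H2af, H3f3 or H1f as replacement histone genes. This gave 57 probes for 44 genes, of 19194 genes that carried a symbol, and 30 of the 44 were replication-dependent and 14 replacement genes. Where a gene had several such probes, the probe with the highest mean signal over the 6 arrays stood for it. All 44 passed the filter on low signal, and 43 were well above background on every array, the exception being H2afy2 with 4 arrays. Hist1h1c and Hist1h4i had no probe under their symbols and were read only through probes named by an accession.

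Histones are the proteins that package DNA into nucleosomes. The core is built from H2A, H2B, H3 and H4, and linker histone H1 binds the DNA between cores. Most copies are encoded by clustered, nearly identical genes without introns that are transcribed mainly while DNA is being replicated, and their mRNAs end in a conserved stem-loop instead of a poly(A) tail. Replacement histones mostly come from single genes with ordinary polyadenylated mRNAs. Many are made throughout the cell cycle and replace core histones at active genes, at DNA breaks or in silenced chromatin.

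RNA came from abdominal adipose tissue of C57BL/6 mice on a high-fat diet, which was started when the animals were 6 weeks old and had lasted 12 weeks when they were randomised. In the duodenal-jejunal bypass (DJB) group the small intestine was rerouted with a biliopancreatic limb of 5 cm and a Roux limb of 4 cm under buprenorphine, and in the Sham group the abdomen was opened and the intestine cut and resutured in place. Each group had 3 arrays. The labels give neither the fat depot nor the time after surgery, and whether each array is a different mouse is not stated, so p-values describe the spread between these samples.

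All 8 adipocyte markers were well above background on the 6 arrays, among them Adipoq, Fabp4 and Plin1. The 75th percentile of the signal lay between 176 and 184 on Sham arrays and between 132 and 165 on DJB arrays, and no spot was saturated. Testis germ cell RNA stood out on Sham-1 and Sham-2. Prm2, a sperm protamine, read 5.11, 4.63 and -0.64 in Sham and -0.68, 0.70 and -0.93 in DJB, in log2 units relative to each array's 75th percentile, the scale of every array value below. The summed linear signal of the testis list ran from 1.27 to 47.3 on Sham arrays and from 1.16 to 2.69 on DJB arrays. With 3 arrays against 3, an exact permutation test of one gene cannot go below 0.10, and the number of arrays limits the precision.

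The probes are 60 bases long, and several of them read sequence that many histone genes hold in common. The lines that follow show the probes of 4 H2A genes in the stretch that codes for the end of the protein. Capitals mark the longest run shared with the Hist1h2af probe, and in that probe the run shared with Hist1h2aa. Positions are those of the deposited files, in build mm9.

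Hist1h2af, chr13:23626108-23626167, plus strand: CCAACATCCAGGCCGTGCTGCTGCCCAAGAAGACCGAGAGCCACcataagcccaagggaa
Hist1h2aa, chr13:24026659-24026718, plus strand: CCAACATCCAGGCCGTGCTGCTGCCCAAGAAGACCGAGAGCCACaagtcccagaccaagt
H2afj, chr6:136757181-136757240, plus strand: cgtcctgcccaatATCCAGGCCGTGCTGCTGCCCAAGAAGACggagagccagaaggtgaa
Hist1h2ao, chr13:21902682-21902741, plus strand: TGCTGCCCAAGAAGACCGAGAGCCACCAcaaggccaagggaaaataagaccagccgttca

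Hist1h2af and Hist1h2aa share 44 bases in a row, although Hist1h2aa encodes an H2A form known from testis. The next lines show 3 H2B probes and then 3 H4 probes, with the run shared with Hist1h2bm (in Hist1h2bm itself, with Hist1h2bk) or with Hist1h4f (in Hist1h4f itself, with Hist1h4d) in capitals.

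Hist1h2bm, chr13:21814139-21814198, plus strand: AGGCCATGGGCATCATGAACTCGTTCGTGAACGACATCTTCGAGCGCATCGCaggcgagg
Hist1h2bk, chr13:22127928-22127987, plus strand: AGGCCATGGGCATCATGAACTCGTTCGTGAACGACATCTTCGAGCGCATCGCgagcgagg
Hist3h2bb-ps, chr11:58767697-58767756, minus strand: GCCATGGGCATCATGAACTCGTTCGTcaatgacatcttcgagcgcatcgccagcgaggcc
Hist1h4f, chr13:23643249-23643308, minus strand: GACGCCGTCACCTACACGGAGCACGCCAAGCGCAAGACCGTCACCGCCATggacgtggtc
Hist1h4d, chr13:23673665-23673724, plus strand: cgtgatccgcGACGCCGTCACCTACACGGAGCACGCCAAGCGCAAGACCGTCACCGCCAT
Hist2h4, chr3:96066953-96067012, minus strand: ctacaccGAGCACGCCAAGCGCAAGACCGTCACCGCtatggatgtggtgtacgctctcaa

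Counting a shared run of at least 25 bases as a link, 12 of the 44 genes fell into 4 groups, so the 44 values amount to at most 36 separate readings. Besides the sets shown, Hist1h2ai and Hist1h2ak were linked. Probes can also lie side by side, and those of Hist1h2ai and Hist1h2ao start at positions 21902336 and 21902682 of chromosome 13, on the same strand. The Hist1h2ai probe opens with ATG and the Hist1h2ao probe holds a TAA stop. Both may therefore read the same H2A coding sequence, though they were counted apart. Within the linked groups the differences between DJB and Sham, in log2 units, ran from -0.01 to 0.12 for the 3 H2B genes, from 0.03 to 0.07 for the 3 H4 genes and from 0.00 to 0.36 for the H2A set with H2afj, where the upper end was Hist1h2ao. Signal that reaches such a probe may come from any gene that holds the run, and the files cannot split it.

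Replication-dependent histone genes were on balance slightly higher after DJB. Of 30 genes, 25 had a positive difference, against 54.6% of all genes tested, and the median difference was 0.15 against 0.05 for all genes. The count of positive genes depended on how the arrays were scaled, and fell to 17 of 30 both with quantile normalization and in the authors' deposited table. Of all genes, 53.8% and 53.5% were positive in these 2 settings, so the count there was near the share of all genes. The median of the replication-dependent genes was 0.16 in both, against 0.04 and 0.03 for all genes. Few single genes passed the test. Hist1h1b rose, 1 gene against a background of 2.12% of genes called higher at an adjusted p under 0.05, and Hist2h2aa1 and Hist1h2be fell, 2 genes against 4.91% called lower. All 3 DJB arrays lay above all 3 Sham arrays for 13 genes and below them for 2, where 25.5% and 19.7% of all genes did so. At an unadjusted p under 0.05, 10 genes were higher and 2 lower, with 17.4% and 18.1% of all genes on these sides. Replacement genes gave a median of 0.04, with 8 of 14 positive, none called higher by limma (4 at an unadjusted p under 0.05) and 1, H1fx, called lower. The replacement median was negative with quantile normalization (-0.06, 5 of 14 positive), in the authors' deposited table (-0.07, 5 of 14) and with normexp background correction (-0.05, 6 of 14).

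**Figure D1:**
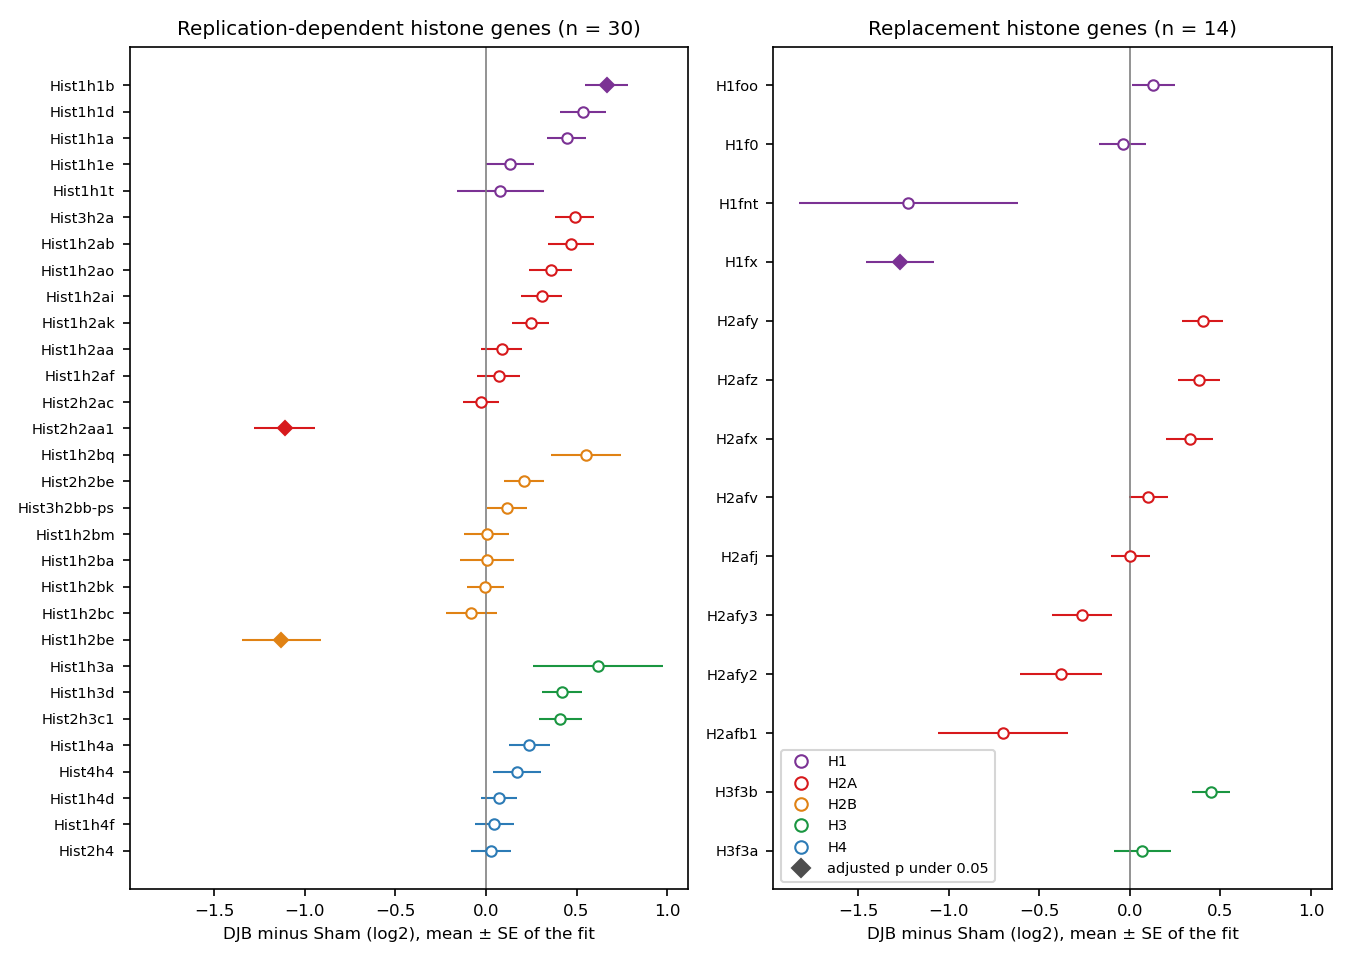
Difference between DJB and Sham for each of the 44 histone genes, in log2 units, with the standard error of the limma fit (n = 3 arrays per group). Filled diamonds mark Hist1h1b above 0 and Hist2h2aa1, Hist1h2be and H1fx below 0, the 4 genes with an adjusted p under 0.05. The 5 replication-dependent H1 genes all lie to the right of 0.

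All 5 linker histone genes of the cluster had a positive difference, with a median of 0.45, and 1 of them was called. Hist1h1b, which encodes linker histone H1.5, read 1.16, 1.42 and 1.18 in Sham and 1.92, 1.97 and 1.88 in DJB. Every DJB value lay above every Sham value, a difference of 0.67 (SE 0.118, 1.59-fold, limma adjusted p = 0.0405). A second probe of its transcript, named by accession and not used to choose the value, gave 0.53 (SE 0.134, adjusted p = 0.0707).

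Hist1h1d, which encodes H1.3, read 0.88, 0.83 and 0.69 in Sham and 1.17, 1.37 and 1.48 in DJB. These groups did not overlap either, and the difference of 0.53 (SE 0.128) had an adjusted p of 0.0654. Hist1h1a, for H1.1, read -0.66, -0.50 and -0.60 in Sham and -0.09, -0.11 and -0.22 in DJB, again without overlap (difference 0.45, SE 0.108, adjusted p = 0.0663). In Hist1h1e, for H1.4, the groups overlapped, with Sham values of 3.22, 3.38 and 3.21 and DJB values of 3.36, 3.59 and 3.25 (difference 0.13, SE 0.133). The testis linker histone Hist1h1t overlapped as well (difference 0.08, SE 0.240). The accession-named probe of Hist1h1d gave 0.45 (SE 0.128, adjusted p = 0.0887), without overlap. Those of Hist1h1a and Hist1h1e gave 0.26 (SE 0.169, adjusted p = 0.363) and 0.01 (SE 0.136), both with overlap, and that of Hist1h1t was not tested. Hist1h1c, the H1.2 gene that lacked a symbol-named probe, had an accession-named probe at 1.91, 1.90 and 1.98 in Sham and 2.33, 2.58 and 2.59 in DJB (difference 0.57, SE 0.120, adjusted p = 0.0517).

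The Hist1h1b probe lies in the lysine-rich tail that lets H1 bind linker DNA. Capitals mark lysine codons (AAA or AAG), which make up 8 of the 20 codons in the reading frame that holds most of them.

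Hist1h1b, chr13:21871923-21871982, minus strand: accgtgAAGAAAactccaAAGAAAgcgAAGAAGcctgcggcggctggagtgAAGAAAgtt

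The promoters of these genes are also alike. Of RefSeq promoters in build GRCm38.p6, covering 250 bases before the start, those of all 5 replication-dependent H1 genes hold CCAAT on either strand, against 33.8% of all promoters. AAACACA, the H1 box, occurs in 4 of the 5 against 6.25% of all promoters, and TATAAA in 4 of 5 against 12.4%. Promoters were found for 25 of the 30 replication-dependent genes (26 promoters, of which 23 hold CCAAT) and for 12 of the 14 replacement genes (6 of 12). AAACACA lies within 150 bases of the start in 4 of these genes. Those 150 bases are shown for 3 of them, leaving out the testis gene Hist1h1t, because each holds all 3 motifs there. Capitals mark the motifs on either strand, so that CCAAT may read ATTGG and TATAAA may read TTTATA. The matches describe the letters and say nothing about binding.

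Hist1h1b, GRCm38.p6 chr13:21780626-21780775, minus strand: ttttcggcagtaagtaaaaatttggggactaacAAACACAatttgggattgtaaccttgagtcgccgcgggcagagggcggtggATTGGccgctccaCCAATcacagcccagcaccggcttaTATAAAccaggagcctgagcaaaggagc
Hist1h1d, GRCm38.p6 chr13:23554882-23555031, plus strand: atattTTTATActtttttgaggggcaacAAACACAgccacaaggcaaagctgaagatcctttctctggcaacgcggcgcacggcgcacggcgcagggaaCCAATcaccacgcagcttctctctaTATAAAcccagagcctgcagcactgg
Hist1h1e, GRCm38.p6 chr13:23622559-23622708, minus strand: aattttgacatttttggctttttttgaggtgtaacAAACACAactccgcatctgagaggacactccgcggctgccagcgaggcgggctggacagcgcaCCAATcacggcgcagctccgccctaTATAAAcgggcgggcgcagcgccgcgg

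The H2A genes held both a large fall and several small positive differences. Hist2h2aa1, an H2A gene of the chromosome 3 cluster, read 5.495, 5.29 and 5.52 in Sham and 4.02, 4.40 and 4.55 in DJB. All DJB values lay below all Sham values, and the gene fell by 1.11 on the log2 scale (SE 0.169, 2.16-fold, adjusted p = 0.0322). Its accession-named probe, which holds the stem-loop of the mRNA, read 7.98, 7.74 and 8.04 in Sham and 6.33, 6.88 and 6.80 in DJB, a fall by 1.25 (SE 0.183, adjusted p = 0.0306). Hist2h2aa2, a neighbouring copy now called H2ac19, has an accession-named probe that fell by 1.07 (SE 0.206, adjusted p = 0.0456), with 5.72, 5.37 and 5.74 in Sham and 4.16, 4.66 and 4.79 in DJB. The Hist2h2aa1 and Hist2h2aa2 probes share 23 bases in a row, and transcripts of such copies cannot be told apart here.

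None of the other Hist2 genes with a symbol-named probe, which lie on the same chromosome, was called. Hist2h2ac, an H2A gene, read 7.50, 7.44 and 7.49 in Sham and 7.37, 7.50 and 7.47 in DJB. The groups overlapped, with a difference of -0.03 (SE 0.101). The H2B gene Hist2h2be had a difference of 0.21 (SE 0.111), the H3 gene Hist2h3c1 one of 0.41 (SE 0.119) and the H4 gene Hist2h4 one of 0.03 (SE 0.111). Whether Hist2h2aa1 differed from these genes in its response was not tested.

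The starts of 3 H2A coding sequences are printed because the Hist2h2aa1 probe covers the same stretch as Hist1h2ai and Hist1h2ak and yet gave the opposite sign. Capitals mark the longest run shared with Hist1h2ak, or in Hist1h2ak with Hist1h2ai, and it is 26 bases in Hist1h2ai but 15 in Hist2h2aa1.

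Hist1h2ak, chr13:21845637-21845696, minus strand: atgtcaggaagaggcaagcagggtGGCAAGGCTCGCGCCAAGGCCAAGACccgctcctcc
Hist1h2ai, chr13:21902336-21902395, plus strand: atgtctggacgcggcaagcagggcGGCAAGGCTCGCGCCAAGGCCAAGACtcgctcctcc
Hist2h2aa1, chr3:96049502-96049561, plus strand: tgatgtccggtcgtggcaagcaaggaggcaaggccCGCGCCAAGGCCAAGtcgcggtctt

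Hist1h2ai read 2.90, 3.07 and 2.83 in Sham and 3.23, 3.28 and 3.21 in DJB, without overlap (difference 0.31, SE 0.113, adjusted p = 0.146). Hist1h2ak gave 3.81, 3.97 and 3.86 against 4.10, 4.13 and 4.15, also without overlap (difference 0.25, SE 0.103, adjusted p = 0.180). Accession-named probes gave 0.67 (SE 0.169, adjusted p = 0.0718) for Hist1h2ai and 1.10 (SE 0.282, adjusted p = 0.0743) for Hist1h2ak, so all 4 differences were positive and none passed the test, but the probes differed in size. Among symbol-named H2A probes the largest positive difference was that of Hist3h2a, a single H2A gene on chromosome 11, with 4.56, 4.76 and 4.62 in Sham and 5.08, 5.14 and 5.18 in DJB (difference 0.49, SE 0.108, adjusted p = 0.0567). Its second probe gave 0.51 (SE 0.108, adjusted p = 0.0515). Hist1h2ab was close, at 0.47 (SE 0.126, adjusted p = 0.0803) and, by its second probe, 0.51 (SE 0.118, adjusted p = 0.0621).

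Hist1h2af and Hist1h2aa, whose probes share 44 bases, differed by 0.07 (SE 0.117) and 0.09 (SE 0.111). Hist1h2aa is a testis form, and its symbol-named probe had a mean signal of 40498, while the accession-named probe of its transcript stayed near background throughout, with a mean signal of 1.18. A second symbol-named probe of Hist1h2af gave 0.39 (SE 0.103, adjusted p = 0.0776), with no overlap between the groups.

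The H2B genes as a family had a median difference of 0.00. Hist1h2be was the exception among them, at -2.27, -2.37 and -2.35 in Sham and -3.83, -3.54 and -3.005 in DJB. All DJB values were lower, and the gene fell by 1.13 (SE 0.218, 2.19-fold, adjusted p = 0.0456), but this probe is dim, with a mean signal of 24.8. The second probe of the same transcript gave the opposite sign, 0.12 (SE 0.117, adjusted p = 0.529), and with normexp background correction the symbol-named probe gave -0.19 and was not called.

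Hist1h2bc, which had the highest mean signal of the family, read 6.71, 6.58 and 6.76 in Sham and 6.82, 6.57 and 6.42 in DJB. The groups overlapped (difference -0.08, SE 0.140). Hist1h2bk and Hist1h2bm, which share 52 bases, gave -0.01 (SE 0.102) and 0.00 (SE 0.123), and the testis H2B gene Hist1h2ba gave 0.00 (SE 0.149). Hist1h2bq, a dim probe with a mean signal of 23.9, read -3.46, -2.80 and -2.93 in Sham and -2.60, -2.47 and -2.47 in DJB, a difference of 0.55 (SE 0.191, adjusted p = 0.130). The groups did not overlap, though the spread among Sham arrays was wide.

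All 3 H3 genes had positive differences and none passed the test. Hist2h3c1 read 6.27, 6.52 and 6.43 in Sham and 6.87, 6.88 and 6.72 in DJB (difference 0.41, SE 0.119, adjusted p = 0.0923). Hist1h3d read 6.06, 6.18 and 6.11 against 6.56, 6.62 and 6.42 (difference 0.42, SE 0.111, adjusted p = 0.0775). In both genes every DJB array lay above every Sham array by these probes. The accession-named probe of Hist2h3c1 gave 0.25 (SE 0.124, adjusted p = 0.238), with overlap. That of Hist1h3d gave 0.55 (SE 0.114, adjusted p = 0.0502), without overlap. Hist1h3a, with a mean signal of 11.0, overlapped between groups (difference 0.62, SE 0.358). By symbol-named probes of highest mean signal the 5 H4 genes ranged from 0.03 to 0.24, and in 4 of them the groups overlapped. Hist1h4a was the gene without overlap (difference 0.24, SE 0.112, adjusted p = 0.221), and Hist4h4 gave 0.17 (SE 0.132). Hist1h4i, read by an accession-named probe, gave 0.69 (SE 0.255, adjusted p = 0.147). Hist1h4f, with the highest mean signal among them, read 6.93, 6.86 and 6.95 in Sham and 6.93, 7.06 and 6.89 in DJB.

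**Figure D2:**
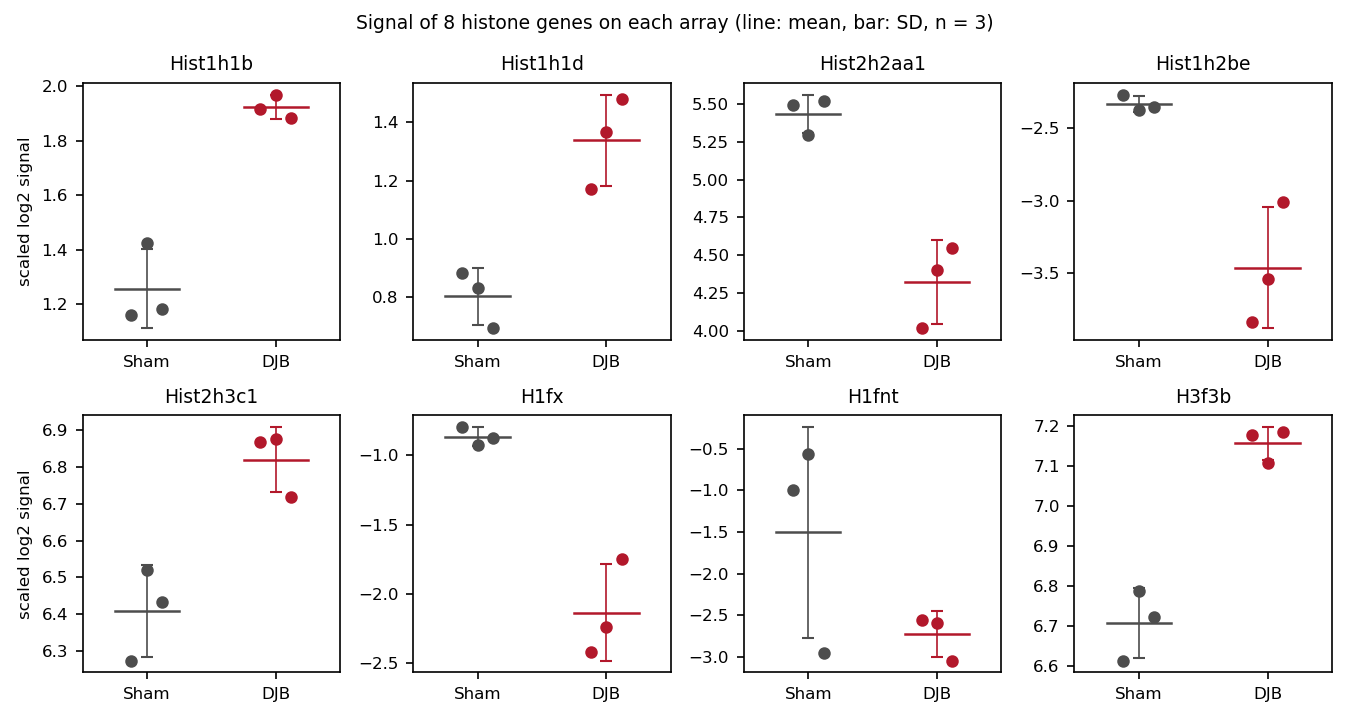
Scaled log2 signal of 8 histone genes on each array, where 0 is the array's 75th percentile, with the group mean as a line and the SD as a bar (n = 3 per group, and each panel has its own axis). Sham and DJB do not overlap except in H1fnt, where Sham-1 and Sham-2 are high and Sham-3 is among the DJB values.

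The 3 calls in the replication-dependent class were also read by slide and without single arrays. Sham-1, Sham-3, DJB-1 and DJB-2 shared 1 slide, and Sham-2 and DJB-3 another. With the slide as a block, the adjusted p was 0.0675 for Hist1h1b, 0.0616 for Hist2h2aa1 and 0.0664 for Hist1h2be. Within the first slide and within the second, the differences were 0.77 and 0.46 for Hist1h1b, -1.30 and -0.74 for Hist2h2aa1 and -1.38 and -0.63 for Hist1h2be. Hist1h1b lost its call when any of the 6 arrays was left out (adjusted p 0.0581 to 0.147). Hist2h2aa1 and Hist1h2be kept theirs without DJB-3 (0.0367 and 0.0235) and lost it without any other array (0.0532 to 0.130 and 0.0806 to 0.158).

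The stem-loop at the end of replication-dependent histone mRNAs, which the stem-loop binding protein recognises, was looked for in the probes. Its arms were searched as GGCTCNNNNNNGAGCC, which reads the same on both strands. Only 0.0200% of the 150305 probes (30 probes) hold it, and 25 of the 30 belong to histone genes, 1 of them a probe that stands for a gene here, that of Hist1h3a. Of these 25 probes, 22 were tested and 21 had a positive difference, with a median of 0.38, where 47.2% of all accession-named probes were positive. The exception was the second Hist2h2aa1 probe, the only one called lower, and none was called higher, against 6.54% and 1.27% of accession-named probes. Of the 25 probes, 11 are among the second readings and 13 among the other clustered genes that are described next, so they are not separate readings. The windows around the stem-loop are shown for this probe and for Hist1h3a, with the arms in capitals. The Hist1h3a probe lies at chr13:23853756-23853815 on the minus strand in mm9, and the files place the other probe nowhere, although RefSeq puts Hist2h2aa1 on chromosome 3.

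Hist1h3a stem-loop: ccaaaGGCTCttttcaGAGCCaca
Hist2h2aa1 stem-loop: aaaaaGGCTCttttcaGAGCCaccc

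Accession-named probes gave second readings for 28 replication-dependent genes, of which 26 were tested. They had a positive difference in 24 of 26, against 47.2% of all accession-named probes, and a median of 0.27. None was called higher and 1, Hist2h2aa1, was called lower, against 1.27% and 6.54% of accession-named probes. At an unadjusted limma p under 0.05, 9 were higher, where 17.4% of all genes were higher by symbol-named probes. That share was not counted over all accession-named probes. For 12 replacement genes tested in this way the median was -0.01, with 6 positive and none called higher (3 at an unadjusted p under 0.05). Only H1fnt fell past the threshold. Its probe met the filter through its Sham arrays alone, so it is not counted as a call. For the replication-dependent genes the sign was that of the symbol-named probe in 23 of 26. Another 34 clustered histone genes have only accession-named probes. Of 32 tested, 29 were positive with a median of 0.39, and H4c12, an H4 gene, was the one called higher (difference 0.58, SE 0.098, adjusted p = 0.0378) and H2ac19 the one called lower.

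**Figure D3:**
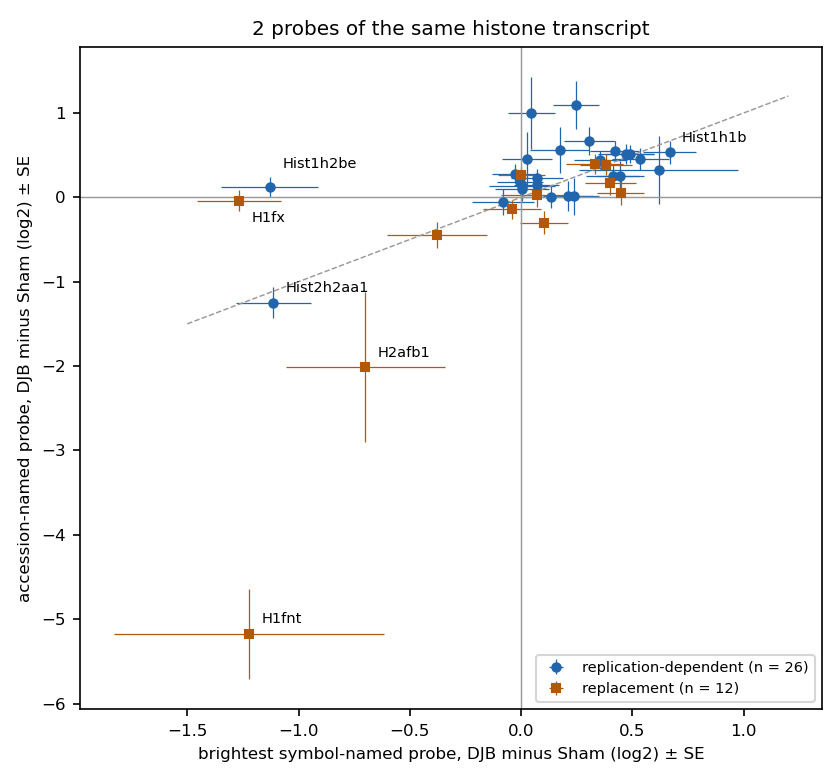
Difference between DJB and Sham (log2, with SE) by the symbol-named probe on the horizontal axis and by the accession-named probe of the same transcript on the vertical axis, for 26 replication-dependent and 12 replacement histone genes. Hist2h2aa1 lies near the dashed line of equality, while Hist1h2be and H1fx are near -1.1 to -1.3 by the first probe and near 0 by the second.

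Differences were set beside the sharing of probe sequence. The 11 replication-dependent genes whose probe shares a run of at least 25 bases with a probe of another histone gene had a median difference of 0.07, and the other 19 had one of 0.24, a contrast that was not tested. Only probes were compared, so the probes of these 19 may also match transcripts of other histone genes. Hist1h2ao, Hist1h2ai and Hist1h2ak share such a run and, at 0.36, 0.31 and 0.25, lay above the median of the genes that do not. The median mean signals of the 11 and the 19 genes were 13367 and 1659. Among the 12 replication-dependent genes with a mean signal of 10000 or more the median difference was 0.07, and among the 18 below it 0.24. Sharing and signal go together in these probes, and their parts in the size of the difference were not tested.

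**Figure D4:**
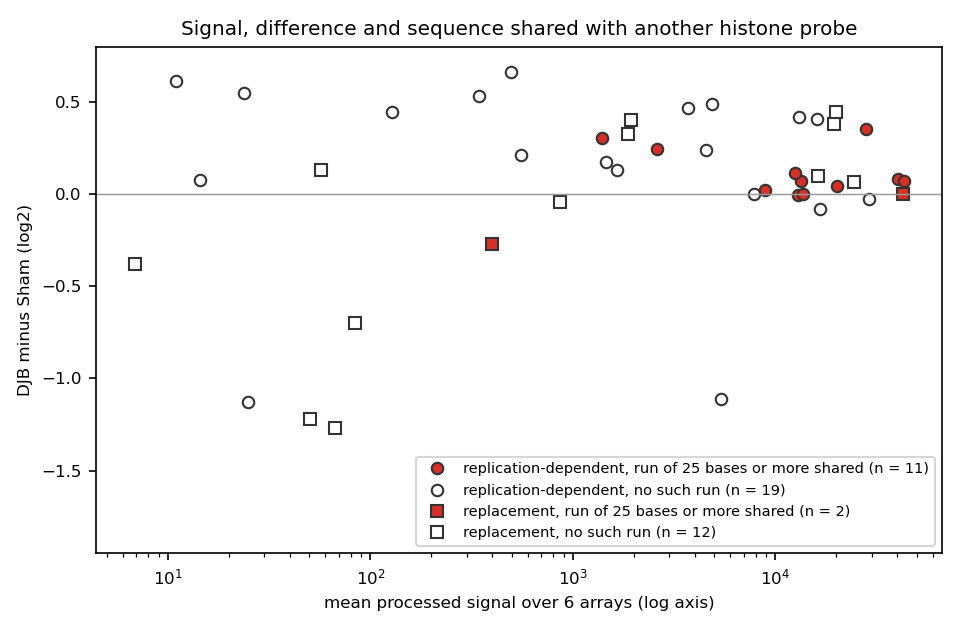
Mean processed signal over the 6 arrays (log axis) against the DJB minus Sham difference (log2) for the 44 histone genes, with filled points for probes that share a run of 25 bases or more with a probe of another histone gene. The filled points lie between -0.01 and 0.12, apart from Hist1h2ao at 0.36, Hist1h2ai at 0.31, Hist1h2ak at 0.25 and H2afy3 at -0.27.

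Differences of the replacement genes ran from -1.27 to 0.45. H3f3a and H3f3b encode the same H3.3 protein, which is laid down outside replication. H3f3b read 6.61, 6.79 and 6.72 in Sham and 7.18, 7.11 and 7.18 in DJB, without overlap (difference 0.45, SE 0.106, adjusted p = 0.0632). Other H3f3b probes gave 0.08 (SE 0.115) and 0.05 (SE 0.172), so the probes of this gene disagreed. H3f3a read 7.21, 7.13 and 7.20 against 7.38, 7.42 and 6.94 and overlapped (difference 0.07, SE 0.158). Other symbol-named H3f3a probes gave 0.20 (SE 0.121, adjusted p = 0.321) and 0.24 (SE 0.102, adjusted p = 0.182), both without overlap. The accession-named H3f3a probe gave 0.03 (SE 0.138) and overlapped.

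H2afz encodes H2A.Z, a variant placed near the starts of genes, and read 6.61, 6.74 and 6.77 in Sham and 7.21, 6.98 and 7.07 in DJB. The groups did not overlap (difference 0.38, SE 0.117, adjusted p = 0.102), and the second probe gave 0.39 (SE 0.121, adjusted p = 0.106). Its paralogue H2afv overlapped, at 6.60, 6.55 and 6.58 against 6.65, 6.80 and 6.59 (difference 0.10, SE 0.109), while its accession-named probe gave -0.30 (SE 0.134, adjusted p = 0.204) with every DJB array below every Sham array. H2afx, whose product is phosphorylated at DNA breaks, read 3.26, 3.50 and 3.29 in Sham and 3.72, 3.79 and 3.54 in DJB, with every DJB array above every Sham array (difference 0.33, SE 0.128, adjusted p = 0.160; second probe 0.39, SE 0.117).

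The macroH2A genes encode H2A variants with a large extra domain that are enriched in silenced chromatin. H2afy, for macroH2A1, read 3.22, 3.40 and 3.46 in Sham and 3.77, 3.73 and 3.79 in DJB, without overlap (difference 0.40, SE 0.113, adjusted p = 0.0879). A second symbol-named H2afy probe gave 0.41 (SE 0.138) and another -0.04 (SE 0.119). The accession-named H2afy probe, with a mean signal of 5161, gave 0.17 (SE 0.136, adjusted p = 0.462), and its groups overlapped. H2afy2, for macroH2A2, was near background, at -4.37, -4.41 and -4.57 in Sham and -4.39, -4.85 and -5.25 in DJB (difference -0.38, SE 0.225). Its accession-named probe was well above background on all 6 arrays and gave -0.45 (SE 0.152, adjusted p = 0.123). H2afy3 overlapped between groups (difference -0.27, SE 0.166). H2afj gave 0.00 (SE 0.107) by the probe shown above, which shares 29 bases with Hist1h2af, and 0.35 (SE 0.100, adjusted p = 0.0900) by its other symbol-named probe, where the groups did not overlap.

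Among replacement linker histones, H1fx was the gene called. It encodes H1.10, a linker histone that is not tied to replication, and read -0.79, -0.93 and -0.87 in Sham and -2.42, -2.24 and -1.75 in DJB. All DJB arrays were lower, and the gene fell by 1.27 (SE 0.189, 2.41-fold, adjusted p = 0.0313). Its second probe, with a mean signal of 1239, read 2.95, 2.76 and 3.07 in Sham and 2.91, 2.93 and 2.81 in DJB, which is no detectable difference (-0.04, SE 0.123, adjusted p = 0.855). With the slide as a block the call on the first probe was lost (adjusted p = 0.0548), within the slides it gave -1.49 and -0.82, with normexp it gave -0.59, and it kept its call without DJB-3 (0.0195) but not without any other array (0.0557 to 0.128). H1f0, a linker histone of cells that have stopped dividing, read 2.41, 2.40 and 2.45 against 2.20, 2.58 and 2.35 and overlapped (difference -0.04, SE 0.131).

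H1fnt and H2afb1 are histone genes of the male germ line. H1fnt read -1.002, -0.57 and -2.95 in Sham and -2.55, -2.59 and -3.05 in DJB, so Sham-1 and Sham-2 were high and Sham-3 was like the DJB arrays (difference -1.22, SE 0.606, adjusted p = 0.241). Leaving out Sham-1 gave -0.97, leaving out Sham-2 gave -0.75, and leaving out Sham-3 gave -1.94 (adjusted p = 0.0260). The accession-named H1fnt probe was well above background on the 3 Sham arrays and on no DJB array, read -1.36, -0.89 and -3.05 in Sham, and was at least 7.98-fold lower in DJB by the bound from the dimmest probes above background. It passed the filter on low signal through the Sham arrays alone, so no p is given for it. H2afb1 was alike, at -0.36, -0.31 and -1.62 in Sham and -1.57, -1.35 and -1.47 in DJB (difference -0.70, SE 0.358), and the same 3 omissions gave -0.50, -0.47 and -1.13 (the last with adjusted p = 0.0282). These are the arrays on which the testis germ cell markers Prm1, Prm2, Tnp1 and Tnp2 were high. Of the 8 markers in that list 6 were tested, none was called and all 6 differences were negative, and the part of such RNA in the H1fnt and H2afb1 values was not tested. H1foo, a linker histone of oocytes, overlapped between groups (difference 0.13, SE 0.118).

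Genes that make and carry histones were read from lists. Of all genes tested, 54.6% had a positive difference, 2.12% were called higher and 4.91% were called lower. Of 17 tested genes for the processing of histone mRNA ends and for histone gene transcription, 16 had a positive difference, with a median of 0.20, and none passed the test. Slbp, the stem-loop binding protein, gave 0.02 (SE 0.117), and Npat, the coactivator of histone genes, 0.11 (SE 0.125). Of 28 histone chaperones and variant loaders tested, 21 were positive with a median of 0.18, and Znhit1, a subunit of the complex that loads H2A.Z, rose (3.95, 3.86 and 3.96 in Sham, 4.56, 4.41 and 4.47 in DJB, difference 0.56, SE 0.105, adjusted p = 0.0443). Of 29 genes for S phase and proliferation, 28 were positive with a median of 0.41, and 2 rose: Top2a, the topoisomerase of dividing cells, by 0.78 (SE 0.153, adjusted p = 0.0462) and Plk1, a mitotic kinase, by 0.81 (SE 0.163, adjusted p = 0.0486). Cenpa, the H3 variant of centromeres, read 1.24, 1.65 and 1.42 in Sham and 2.16, 2.45 and 1.92 in DJB (difference 0.74, SE 0.182, adjusted p = 0.0688). Its groups did not overlap.

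Markers of other cells moved on the same arrays. The shares of all genes beside them were again 54.6% positive, 2.12% called higher and 4.91% called lower. All 10 macrophage markers were positive with a median of 0.95, and Itgam, Cd68, Lyz2, Gpnmb and Mmp12 rose. The summed macrophage signal ran from 851 to 1155 on Sham arrays and from 1661 to 2065 on DJB arrays. The adipocyte markers had a median of -0.77, with 1 of 8 positive and none called, and their sum ran from 3322 to 3732 and from 2061 to 3083. Markers of B and plasma cells (7 tested) and of red blood cells (6 tested) were all negative, with medians of -1.96 and -1.82 and none called. Their part in the histone values was not tested. In whole tissue, fewer cells of a type and less RNA per cell cannot be told apart.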

How the data were processed

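Labelling of total RNA used a low-input kit that covers whole transcripts and a single dye, cyanine 3, per the labels' protocols. Agilent Feature Extraction (version 12.0.3.1, protocol GE1_1200_Jun14, build mm9, per the file headers) made the deposited scanner files, which give a processed intensity on a linear scale, the mean and local background intensity, and spot flags. The authors' deposited table of log2 values was used as an alternative. Per the submitters' processing notes limma was used, with no version or role given.

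Processed intensity was scaled by the 75th percentile of the 150305 non-control probes of its array and put on a log2 scale. Outlying spots were set to missing. Probes well above background on at least 3 of 6 arrays were tested with limma 3.58.1 in R 4.3.3 (lmFit and eBayes, two-sided, no covariates), with p-values adjusted by Benjamini-Hochberg across every tested probe at 0.05. The script was tested on simulated data. Background shares are over 16159 tested genes, each read by its symbol-named probe of highest mean signal. A bound ("at least") sets the mean of the bright group against the floor of each dim array, which is its lowest value well above background unless the probe itself reads higher.

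Shared runs and motifs were found in Python 3.11.15 with pandas 2.3.3 and numpy 2.4.6, and figures were drawn with matplotlib 3.10.9. Promoters are RefSeq's (GRCm38.p6). The members, lists and alternatives were chosen with earlier results of these data known. Genes were named if called, if their probe had the highest mean signal of its family, if among the 4 largest differences each way in their class, or if on a fixed list; Hist3h2a, Hist1h2ab, Hist1h2ai, Hist1h2ak, Hist1h2bk, Hist1h2bm, Hist1h3d, Hist1h4a, Hist1h4d, Hist2h4, Hist4h4, Hist3h2bb-ps, H2afy3 and H1foo, with Hist1h2ao, H4c12 and H2ac19, were added after their values were seen. Alternatives changed background correction, scaling, filter, probe, slide or replicate block, prior and arrays used. The marker lists for neutrophils, T and NK cells, mesothelium, epididymis, skeletal muscle, pancreas and liver gave 1, 0, 0, 0, 0, 0 and 0 markers higher and 0, 0, 2, 0, 4, 0 and 1 lower. The numbers tested were 6, 8, 6, 1, 7, 6 and 3, and 2.12% and 4.91% of all genes were called higher and lower. The series' design text describes another experiment and was not used.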

Additional observations from a re-analysis of the deposited data

How the results depend on the processing

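Of the replication-dependent genes, 1 was called higher and 2 lower. Called higher were 6 with normexp, 3 with probes well above background on all arrays, 5 with the mean of a gene's probes, 7 with a trended robust prior, and 0 without a filter, with slide as a block, within slide 1 and by accession-named probes (an alternative chosen after seeing the data). Among all 16159 genes, 343 were called higher by the fit above, 1061 with normexp and 1217 with the trended robust prior. The counts were 644 of 15082 for probes well above background on all arrays and 973 of 16164 for the mean of probes. Without a filter, with slide as a block and within slide 1, the counts over all genes were 8, 19 and 0. Called lower were 1 with normexp, median scaling, quantile normalization, the authors' deposited table and accession-named probes, and 0 without a filter, with slide as a block and within slide 1. Over all genes, 794 were called lower by the fit above and 1554 with normexp. Median scaling, quantile normalization and the authors' deposited table gave 523, 776 and 783 of all genes lower. Without a filter, with slide as a block and within slide 1, 131, 157 and 0 of all genes were called lower. Of the replacement genes, 0 were called higher and 1 lower. Called higher were 2 with normexp, 1 with probes above background on all arrays and 3 with the trended prior, and called lower were 0 without a filter, with slide as a block and within slide 1. With each array left out in turn, the 4 counts ran from 0 to 0, 0 to 2, 0 to 0 and 0 to 2, and the medians from 0.13 to 0.20 and from -0.04 to 0.08. Over all genes those fits called from 0 to 128 higher and from 33 to 841 lower. The replication-dependent median was 0.26 with median scaling, which moved the median of all genes from 0.05 to 0.15, 0.22 within slide 1 and 0.27 by accession-named probes. Hist1h2be reversed to 0.12 by its accession-named probe. The causes were not tested, beyond fewer arrays in slide 1 and more probes tested without a filter.

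Equal replicate numbers did not pair the arrays (correlations of deviations -0.18, -0.12 and -0.29). The replicate block gave 0 calls in each class and direction, and 0 among all genes.

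Within the settings tried, Hist2h2aa1, Hist1h1b and H1fx kept their direction in 21 of 21 values and Hist1h2be in 20 of 21. The settings all reuse the same 6 arrays. Their calls held in 11, 9, 10 and 6 of 20 tests, in that order. With 3 arrays per group, none of the 44 histone genes with a difference from 0.40 to 0.62 was called. H1fx and Hist1h2be, whose probes have mean signals of 66.6 and 24.8, gave -0.59 and -0.19 with normexp.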
